A study of Mus musculus with 28 samples.

Results

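Interferon-stimulated genes were followed in CTLL2, an interleukin-2-dependent cytotoxic T cell line of the mouse, given fresh medium with or without exosomes (vesicles released by cells) of the B16F0 melanoma line. The set was a list of 37 gene symbols, drawn up with earlier results of these data known, and its rule used no measured value. All 37 were found by identifier among the 30608 genes of the table. Of these, 28 reached 10 normalized counts in at least 3 libraries and were tested, among 14828 genes that did. The other 9, namely Ifit1, Ifit3, Mx2, Oas1a, Oasl1, Oasl2, Rsad2, Rtp4 and Ifi44, did not.

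All cells were labelled C57BL/6 and had been grown for 24 h in complete medium. At 0 h there were 4 untreated libraries. Fresh complete medium was then added, and 3 untreated libraries were made at each of 0.5, 2, 4 and 8 h. At the same 4 times, 3 libraries each came from cells whose fresh medium held exosomes in PBS at 0.2 mg/ml. The labels do not say whether untreated cells were given PBS. Sample descriptions name a batch 1 of 9 libraries, with every group present once, and a batch 2 of 19, and do not say what differed. The design calls the replicates biological but does not say how they were separated, so the spread may be partly technical.

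Libraries held between 6072984 and 24085812 reads. Untreated 4 h replicate 1 and exosome 8 h replicate 3 stood apart, with 15.7% and 22% of genes at 0, fewer than any other library. All 13 T cell markers were detected, including Cd3e at 2437 to 4047 normalized counts. Normalized counts are reads divided by a size factor for each library. Skeletal muscle Acta1 reached at least 50 normalized counts in 8 libraries spread over both treatments, among them untreated 8 h replicates 1 and 2. In bulk RNA, fewer cells of a type and less RNA per cell cannot be told apart.

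Interferons act through paired receptor chains at the cell surface. Type I interferons bind IFNAR1 with IFNAR2 and signal through the kinases JAK1 and TYK2 to factors that include STAT2 and IRF9 and bind interferon-stimulated response elements (ISRE). Interferon gamma, a main product of activated cytotoxic T cells, binds IFNGR1 with IFNGR2 and acts on gamma-activated sites (GAS). The genes these factors switch on block viral replication, sense viral RNA, or feed back on the pathway.

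RefSeq promoter windows of GRCm38.p6 were matched for 29 of the 37 genes. The ISRE core, written here as GAAA, any 2 bases and GAAA, on either strand, stood in 16 of the 29 (55.2%) against 3.99% of 27025 genes with a window of the same length. The GAS letters TTCNNNGAA stood in 9 of the 29 (31%) against 9.55%. A core was present in 12 of 22 tested genes and in 4 of 7 untested ones. These letters thus occurred near the start site both of genes that were transcribed and of genes near 0. The windows run past the start site, and the only core of Ifih1 and of Ddx58, both tested, lay 32 and 2 bases after it. The sequences below show this for 4 genes that were tested and 3 that were not. Each is written 5′ to 3′ along its gene, with the bases of the cores in capitals, and cores may overlap.
Isg15 (tested; chr4:156200855-156200916, minus strand): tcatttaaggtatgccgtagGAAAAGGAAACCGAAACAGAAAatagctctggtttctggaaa
Bst2 (tested; chr8:71537567-71537622, minus strand): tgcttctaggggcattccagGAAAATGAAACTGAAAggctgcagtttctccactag
Igtp (tested; chr11:58199502-58199551, plus strand): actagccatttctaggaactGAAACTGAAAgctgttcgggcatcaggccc
Cxcl10 (tested; chr5:92349073-92349122, minus strand): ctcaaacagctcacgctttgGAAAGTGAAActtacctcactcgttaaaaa
Ifit1 (not tested; chr19:34640765-34640833, plus strand): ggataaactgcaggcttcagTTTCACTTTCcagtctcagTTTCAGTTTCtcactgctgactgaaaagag
Ifit3 (not tested; chr19:34583353-34583436, plus strand): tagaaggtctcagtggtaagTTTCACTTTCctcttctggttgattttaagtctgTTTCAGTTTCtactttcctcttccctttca
Rsad2 (not tested; chr12:26456543-26456592, minus strand): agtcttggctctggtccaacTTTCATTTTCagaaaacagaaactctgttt

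Levels of the 37 genes differed widely. Per kb of exon, the scale on which genes can be compared, the highest was Bst2, which encodes tetherin, a membrane protein that holds budding virus at the cell surface, with a mean of 2496 normalized counts per kb. Ifi35 followed at 490.3, then the transcription factors Irf8 at 346.4 and Irf1 at 341.9, the GTPase gene Ifi47 at 338.2 and Parp9 at 269.1. The median over all tested genes was 99.53 per kb, and 14 of the 28 tested members lay above it. The means of Irf8, Irf1 and Ifi47 differed from each other by less than their spread over libraries.

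The 9 untested genes were at the other end. Ifit1, which encodes a protein that binds viral RNA caps (ENSMUSG00000034459.8), ranged from 0.926 to 9.46 normalized counts, with a median of 4.74, and was low in every group. Ifit3 had 16 reads over all 28 libraries, Rsad2, the gene of the antiviral enzyme viperin, had 45, and Rtp4 and Ifi44 had 4 each. The chemokine gene Cxcl10 passed the filter but ranged only from 1.33 to 15.5. Of the 3 IFIT genes, Ifit2 alone was clearly present, at 42.4 to 99.5. The floor of 3 reads corresponds to 1.88 to 7.47 normalized counts depending on the library, so falls and small changes of the 9 untested genes were not detectable at this depth. None of the 9 reached 10 normalized counts in any library. Floors cover counting error only.

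**Figure D1:**
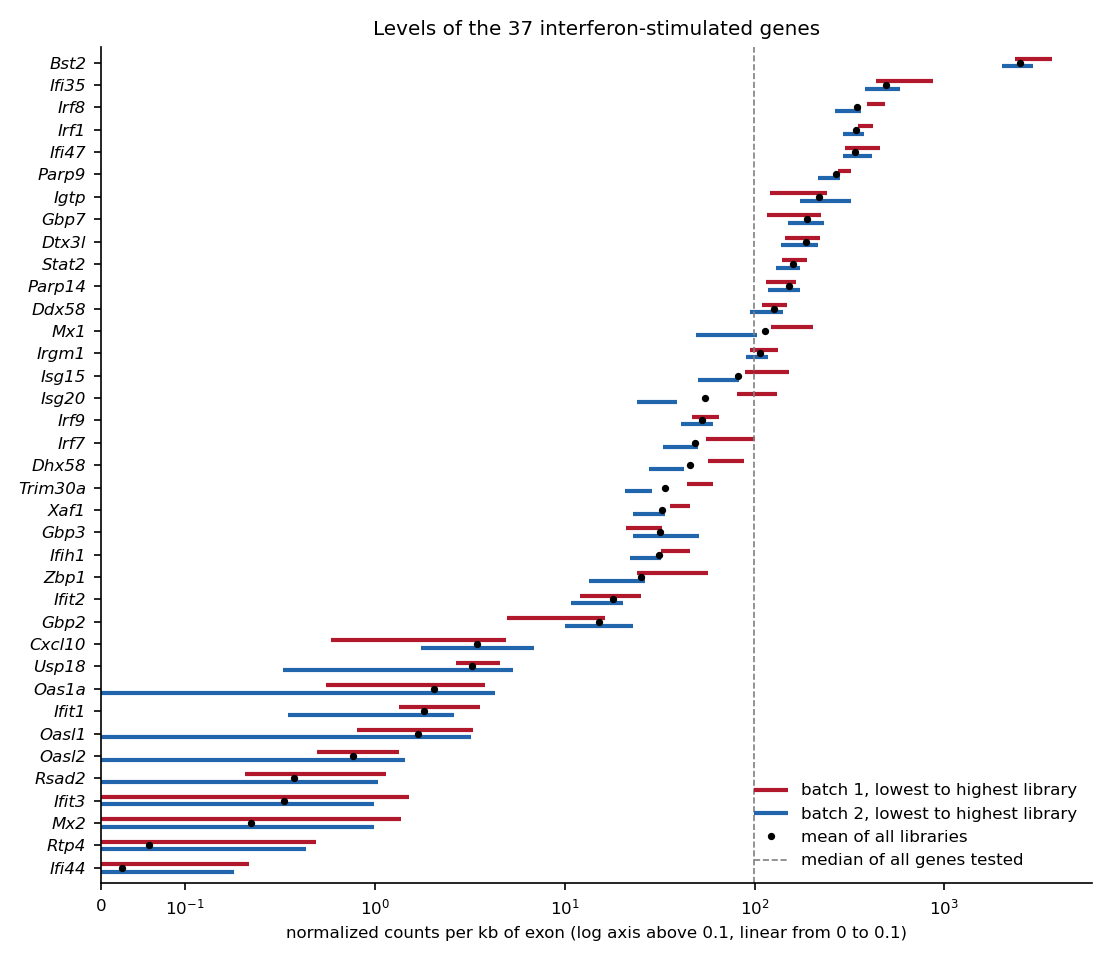
Level of each of the 37 genes in normalized counts per kb of exon. Bars run from the lowest to the highest library of batch 1 (red, n = 9) and batch 2 (blue, n = 19), points are means over all 28 libraries, and the dashed line is the median of all tested genes, 99.53. Bst2 lies highest at 2496 and 9 genes at the bottom did not pass the filter.

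The interferon machinery itself was measured next. Of 11 interferon ligand genes on the list, 2 were in the table, and only Ifng, encoding interferon gamma, passed the filter, at 28.7 to 107 normalized counts. Jak1 averaged 999 normalized counts per kb, Jak2 195, Tyk2 170 and Stat3 500. These 4 genes were present in every library.

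One chain of each interferon receptor was well detected and its partner was not. Ifnar1 averaged 1374 ± 83 normalized counts (SD, n = 28) and Ifngr1 averaged 1369 ± 432. By contrast, Ifnar2 had 5 reads in all 28 libraries together, of 444714861 reads in the table, and was at 0 in 25 libraries. Ifngr2 had 23 reads and was at 0 in 16 libraries, with a highest value of 4.42. Il10rb, which encodes the chain that pairs with IFNLR1 for lambda interferons, had 11 reads and was at 0 in 22 libraries, while Ifnlr1 ranged from 47.7 to 138.

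The 3 genes near 0 lie close together on chromosome 16 of GRCm38, in the order Ifnar2 (91372783 to 91405589), Il10rb (91406164 to 91425834), Ifnar1 (91485238 to 91507441) and Ifngr2 (91547072 to 91565623). Ifnar1 sits between them, and the gene after Ifngr2, Tmem50b, averaged 327 ± 38.4 (SD, n = 28). Of the neighbours measured beyond Tmem50b, Dnajc28 was also near 0, with a mean of 1.02 and 29 reads, and Gart averaged 1381. In GENCODE M21 the readthrough gene Gm21970 shares 315 of the 3329 exon bases of Ifnar2 and 569 of the 3808 of Il10rb, and no other gene shares exon bases with the 3767 of Ifngr2. How the deposited counting treated reads at these loci is not given in the sources used here, and its part in the low values was not tested.

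**Figure D2:**
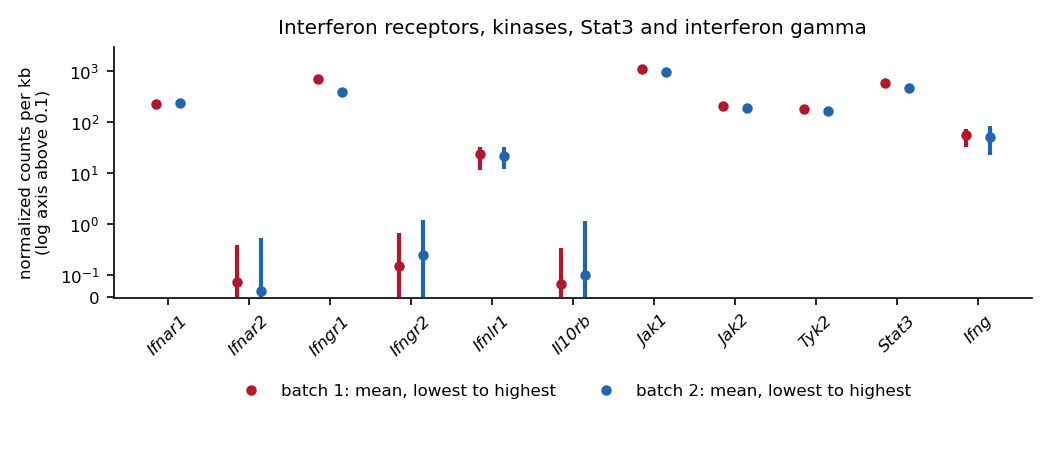
Normalized counts per kb of exon of the interferon receptor chains, the kinases Jak1, Jak2 and Tyk2, Stat3, and interferon gamma, on an axis that is logarithmic above 0.1. Points are batch means and bars run from the lowest to the highest library (batch 1 red, n = 9; batch 2 blue, n = 19). Ifnar2, Ifngr2 and Il10rb lie near 0, beside Ifnar1 and Ifngr1 at more than 200 per kb.

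Exosomes changed none of the 28 tested genes by the test used. Differences were estimated with limma on log2(normalized count + 1) with a batch term, and p was adjusted (Benjamini-Hochberg) across the 14828 genes. No member was called at 0.5 h (all genes 0.243%), 2 h (0.189%), 4 h (0.155%) or 8 h (0.452%), or in the mean over the 4 times (0.459%). Unadjusted p-values below 0.05 numbered 1, 2, 2 and 10 at the 4 times and 4 in the mean. edgeR called 0 in each comparison, and DESeq2 called 0 except for 4 at 8 h.

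The intervals bound the size of a mean exosome effect. Isg15, which encodes a ubiquitin-like modifier induced by type I interferon, had a mean difference of 0.01 on the log2 scale (95% interval -0.14 to 0.17). That mean joins opposite differences at single times. At 4 h Isg15 stood at 68.8, 37.9 and 41.9 normalized counts in untreated and at 79, 62.8 and 58.5 in treated cells, higher with exosomes within each batch (0.46 ± 0.15, SE, log2; limma adjusted p = 0.92). At 8 h it stood at 115, 61.5 and 56.2 in untreated and at 74.2, 57 and 45.7 in treated cells, a difference of -0.34 ± 0.15 (limma adjusted p = 0.152). The unadjusted p-values were 0.00586 and 0.0341, and the limma test of a difference between times gave an adjusted p of 0.366. The intervals of the mean effect were -0.14 to 0.08 for Bst2, -0.07 to 0.05 for Irf1, -0.05 to 0.13 for Stat2, -0.08 to 0.13 for Irf9, -0.21 to 0.11 for Irf7, -0.37 to 0.10 for Gbp2 and -0.46 to 0.44 for Cxcl10. Over the 28 genes the differences ran from -0.54 for Usp18 to 0.19 for Gbp3, with a median of 0.01 beside 0 for all genes to 2 decimals. Expressed members such as Bst2 and Irf1 are thus bounded closely, and Cxcl10, which is near the floor, is not.

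The lowest value belonged to Usp18, whose product removes ISG15 from proteins and restrains the type I receptor. At 0.5 h Usp18 stood at 9.46, 12.1 and 11.5 normalized counts in untreated cells and at 7.47, 4.89 and 6.62 in treated cells. At 8 h it stood at 9, 6.47 and 4.46 in untreated and at 10.5, 0.919 and 1.79 in treated cells, where the batch 1 library (given first) was not lower. The mean effect was -0.54 ± 0.20 (SE; limma adjusted p = 0.847). It was 0.07 in batch 1 and -0.84 in batch 2 (limma adjusted p = 0.144, called with quantile normalization), and the test of that difference gave an adjusted p of 0.955. Without exosome 8 h replicate 1, the batch 1 library, the mean effect (all genes 0.467%), the 8 h effect and the batch 2 effect of Usp18 were called. These values are a few reads per library, near the floor.

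At 8 h, 10 of 28 members had an unadjusted p below 0.05, beside 26.8% of all genes, and the smallest adjusted p was 0.0691 for Ddx58. The smallest p-values belonged to the RNA sensor gene Ddx58 (0.36), Parp14 (0.33), Ifi35 (-0.52) and the GTPase gene Igtp (-0.39), and these are the 4 that DESeq2 called, where 6.02% of all genes were called. For Ifi35 the untreated 8 h libraries held 1509, 1006 and 724 normalized counts and the treated ones 752, 663 and 743. Replicates 1 and 2 of the untreated cells, the pair with muscle transcripts (Acta1 at 202 and 206 against 3.57 in replicate 3), were high, and replicate 3 lay among the treated libraries.

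The same untreated libraries enter the comparison with 0 h below. Without untreated 8 h replicate 3, 8 members were called at 8 h, beside 26.3% of all genes, and 5 in the test of whether the exosome effect differed between times, beside 9.09%. Without exosome 4 h replicate 1 there were 4 calls at 8 h (all genes 6.13%), without exosome 2 h replicate 2 there were 2 (0.981%), and without exosome 8 h replicate 1 there was 1 (0.25%). No member differed between times or between batches in its exosome effect with all libraries (limma; unadjusted p below 0.05 in 5 and 1 members, edgeR and DESeq2 0 calls each). Among all genes these tests called 0% and 0.0337%. Without the 8 libraries with muscle transcripts, Mx1 and Usp18 were called in the test between batches, beside 1.03% of all genes. Summed melanocyte transcripts were 87.2 to 314 normalized counts with exosomes and 45.4 to 167 in untreated cells after 0 h. Gpnmb, part of that sum, averaged 53 in batch 1 and 134 in batch 2. Tyrp1 was at 0 in every untreated library and at 13.2 to 76.3 with exosomes. Its mean exosome effect was 5.08 ± 0.23 and that of Dct 2.76 ± 0.20 (SE, log2). Both were called by limma, as were Mitf and Trpm1, while Pmel and Gpnmb were tested and not called. Unlike Tyrp1, Dct was detected in every untreated library, at 0.849 to 4.04 normalized counts. The part of melanocyte transcripts in the values of the members was not tested.

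**Figure D3:**
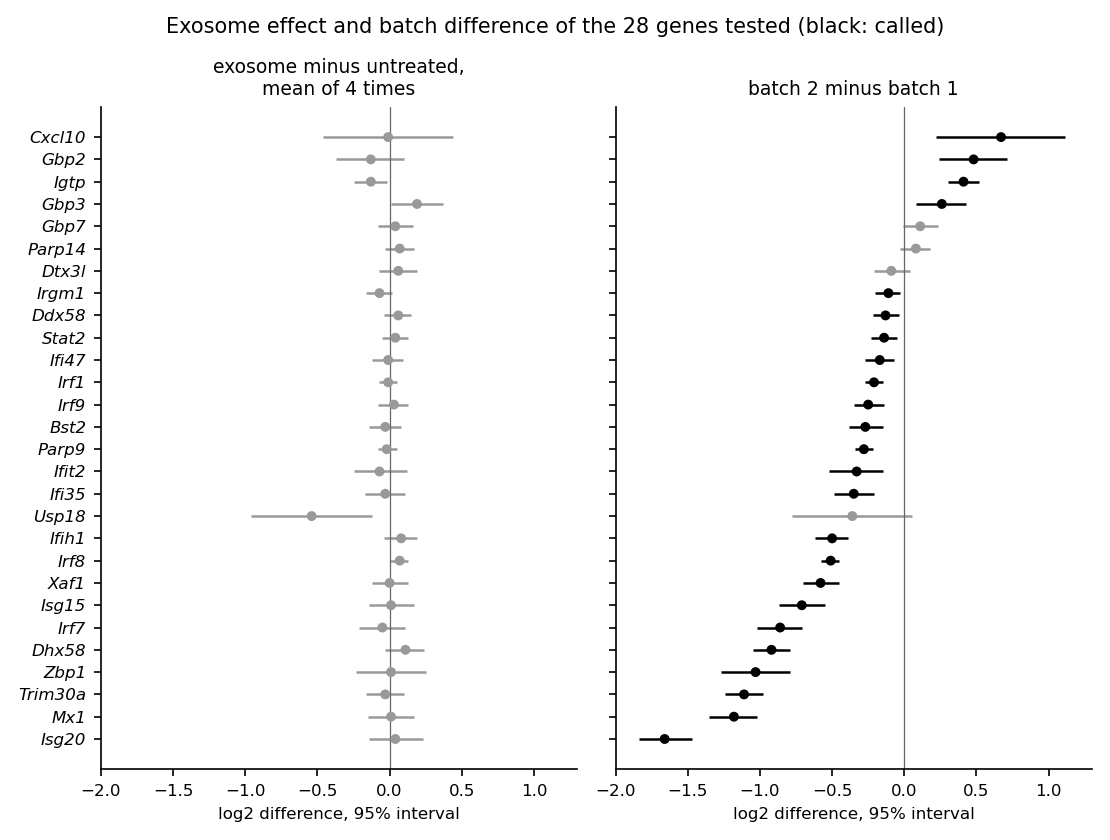
Differences of the 28 tested genes on the log2(normalized count + 1) scale with 95% intervals from limma, for exosome-treated minus untreated cells averaged over 4 times (left) and for batch 2 minus batch 1 (right). Black marks an adjusted p below 0.05. None of the exosome effects is black, and 24 batch differences are.

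Some members changed over the 9 groups. A moderated F test called 9 of 28, beside 17.7% of all genes: Irf1, Irf8, Usp18, Mx1, Gbp2, Gbp3, Gbp7, Igtp and Parp9. edgeR called 8 and DESeq2 10. The count was 17 without untreated 8 h replicate 3 (all genes 29.9%), 5 without untreated 8 h replicate 2 (9.96%), 2 without the 8 libraries with muscle transcripts (5.4%), and 5 without the 2 libraries that had the fewest genes at 0 (13.4%).

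Igtp, a GTPase gene that acts against vacuolar pathogens (ENSMUSG00000078853.8, chromosome 11), had the smallest p (adjusted p = 3.44e-05). Its 0 h libraries held 389, 434, 395 and 403 normalized counts, the untreated 2 h libraries 488, 654 and 554, and the untreated 4 h libraries 245, 375 and 395. Treated cells held 417, 588 and 522 at 2 h and 276, 431 and 350 at 4 h. In both treatments and both batches Igtp was thus higher at 2 h than at 4 h. Relative to 0 h, the 4 h level was -0.67 untreated and -0.50 treated in batch 1 (log2). In batch 2 it was close to 0 h, at -0.09 and -0.08. At 0.5 h batch 2 already held 585 and 524 untreated and 570 and 543 treated, and batch 1 held 422 and 371. The untreated rise at 2 h was 0.50 ± 0.10 (SE, log2; limma adjusted p = 0.00797), and 3 of 3 libraries exceeded every 0 h library of their batch. Igtp shares 162 exon bases with Irgm2 on the same strand.

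Irf8, which encodes a transcription factor of lymphoid and myeloid cells, had an adjusted F-test p of 0.00239. Its 0 h libraries held 2764 in batch 1 and 1907, 1961 and 1865 in batch 2, and the untreated 2 h libraries 2888 in batch 1 and 2393 and 2411 in batch 2. Treated cells at 2 h held 3437, 2514 and 2567. Within each batch the 2 h libraries exceeded the 0 h ones, in untreated cells by 0.06 in batch 1 and 0.33 in batch 2 (log2). In batch 1 every later library exceeded the single 0 h library, and untreated 2 h was the lowest of them. Untreated batch 1 cells held 3062 at 0.5 h, 3136 at 4 h and 3063 at 8 h. The untreated rise at 2 h was 0.24 ± 0.06 over both batches (SE, log2; limma adjusted p = 0.0316). Igtp and Irf8 were the only members called at 2 h (2 of 28 by limma, edgeR and DESeq2, all genes 1.83%), and without untreated 2 h replicate 2 neither was. Irf8 alone lost its call without any of untreated 0 h replicates 2, 3 and 4 or untreated 2 h replicate 3, and Igtp alone without untreated 2 h replicate 1.

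Irf1, a factor that interferon gamma and cytokines induce quickly, was highest at 4 h in both treatments (limma F test, adjusted p = 0.019). In batch 2, Irf1 held 1380, 1296 and 1315 normalized counts at 0 h, 1256 and 1233 at 0.5 h, and 1364 and 1411 at 4 h in untreated cells. Treated batch 2 cells held 1168 and 1203 at 0.5 h and 1495 and 1471 at 4 h. In both treatments the 4 h libraries lay above the 0.5 h ones, and no single untreated time differed from 0 h by the test.

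Parp9, whose product works with DTX3L in ADP-ribosylation, had an adjusted limma F-test p of 0.0127 and was lowest at 4 h, with 1124 and 1101 normalized counts in untreated batch 2 cells against 1214 to 1323 at 0 h. Its exons overlap those of Dtx3l on the opposite strand by 458 bases, and whether the counting used strand is not stated. Gbp7, a guanylate-binding protein gene (limma F test, adjusted p = 0.0311), was also low at 4 h, at 926, 944 and 997 in untreated and 900, 840 and 943 in treated cells, with 1043 to 1265 at 0 h. The 4 h and 0 h libraries of Gbp7 did not overlap. Against 0 h, limma called 0 of 28 at 0.5 h (all genes 0.189%; unadjusted 3, with 0 calls by edgeR and DESeq2) and 0 of 28 at 4 h (1.19%; unadjusted 4, with 0 calls by both). Without untreated 0 h replicate 1, Dhx58 was called at 4 h.

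At 8 h in fresh medium, 10 of 28 members differed from 0 h, a share close to the 31.7% of all genes called. Isg15, Bst2, Ifi35, Ifi47 and Irgm1 rose (all genes 15.9%), and Stat2, Ddx58, Gbp7, Parp14 and Dtx3l fell (15.8%). edgeR and DESeq2 called 9 each. Among those with the largest changes, Ifi35 rose by 0.47 ± 0.13 (SE, log2), Isg15 by 0.38 ± 0.14, Bst2 by 0.37 ± 0.10 and Ifi47 by 0.35 ± 0.09. Gbp7 fell by 0.35 ± 0.11, Dtx3l by 0.30 ± 0.12, Parp14 by 0.28 ± 0.09 and Stat2, which encodes the STAT specific to type I and lambda interferons, by 0.27 ± 0.08. Stat2 held 932, 766 and 802 normalized counts at 8 h and 974 to 1009 at 0 h, with no overlap. The call of Dtx3l was the least stable: it was lost in 18 of 28 fits that left out 1 library (-0.47 to -0.18, limma adjusted p up to 0.304) and was not made by edgeR or DESeq2. That of Isg15 was lost in 6 of the 28 and was not made by DESeq2.

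Gbp7 held 656, 902 and 1127 normalized counts in untreated 8 h replicates 1, 2 and 3, and 1265, 1061, 1043 and 1135 at 0 h. Parp14 held 1073, 1099 and 1491 at 8 h and 1421 to 1531 at 0 h. Replicates 1 and 2 were low for both genes and replicate 3 lay within the 0 h range. For the genes that rose, Ifi35 held 1509, 1006 and 724 at 8 h against 844, 669, 690 and 720 at 0 h. Bst2 held 3337, 2653 and 2324 at 8 h against 2123, 2108, 2093 and 2037 at 0 h, and here all 3 later libraries were higher. Isg15 held 115, 61.5 and 56.2 against 69.2 in the batch 1 library and 47.2 to 51.1 in the others at 0 h, higher at 8 h within each batch.

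Leaving out either untreated 8 h library with muscle transcripts ended nearly all these calls, while the differences kept their direction. Without untreated 8 h replicate 1, limma called 1 of 28, Stat2, beside 15.9% of all genes. Without replicate 2 it called 0 of 28, beside 14.3% of all genes, with 7 at an unadjusted p below 0.05. Over all 28 fits that left out 1 library, the 8 h difference ran from 0.30 to 0.45 for Bst2, 0.29 to 0.46 for Isg15, 0.28 to 0.47 for Ifi47, 0.20 to 0.26 for Irgm1 and 0.30 to 0.68 for Ifi35, and from -0.31 to -0.23 for Stat2. Without all 8 libraries with muscle transcripts, which leaves 1 untreated 8 h library, it called 0 of 28, beside 2.73% of all genes, with 1 unadjusted, and the estimates for Gbp7, Ddx58, Parp14 and Dtx3l turned to between 0.01 and 0.03. In that fit Stat2 was at -0.28, Isg15 at 0.24, Bst2 at 0.22, Irgm1 at 0.20, Ifi47 at 0.11 and Ifi35 at 0.06. Summed muscle markers were 631 to 1698 normalized counts in untreated cells at 8 h and 401 to 564 at 0 h. The sum at 0 h is mostly Ckm, which was at 398 to 1042 over all 28 libraries. At 0 h Mb, Myh4 and Tnnt3 were at 0 in every library, and Acta1 was at 0 to 2.88. The part of the muscle transcripts in the 8 h differences was not tested beyond these values.

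**Figure D4:**
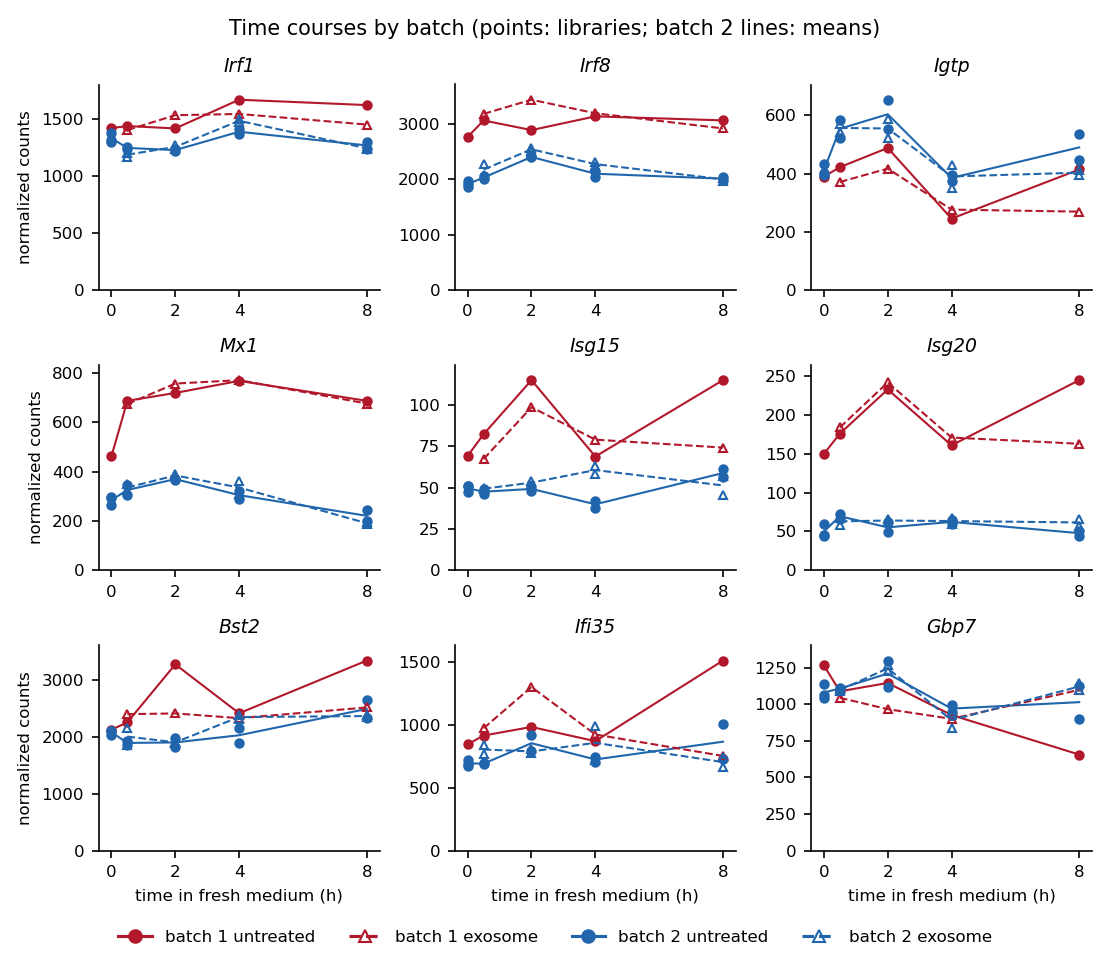
Normalized counts of 9 members against time in fresh medium, each point a library (batch 1 red, batch 2 blue; filled circles and solid lines untreated, open triangles and dashed lines with exosomes; batch 2 lines join means, batch 1 lines join single libraries). Igtp is higher at 2 h than at 4 h in both treatments and both batches, and the batch 1 curves of Mx1 and Isg20 lie above all batch 2 points.

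The largest and most frequent differences were between the batches. Of 28 members, 24 differed between batch 2 and batch 1, beside 57.6% of all genes, and edgeR and DESeq2 also called 24. Batch 2 was lower for 20 (29.2% of all genes) and higher for 4 (28.5%). The median difference was -0.27 on the log2 scale, beside -0.01 for all genes. These counts rest on 9 libraries against 19, each group being present in both batches.

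The members lower in batch 2 were led by Isg20 and Mx1. Isg20, which encodes an exonuclease that degrades viral RNA (ENSMUSG00000039236.18, chromosome 7 from 78913424 to 78920396), ranged from 150 to 245 normalized counts in batch 1 and from 44.6 to 72.9 in batch 2. Mx1, a dynamin-like GTPase gene that C57BL/6-derived strains carry in truncated form (ENSMUSG00000000386.14, chromosome 16 from 97447035 to 97462907), ranged from 463 to 772 in batch 1 and from 187 to 390 in batch 2. The ranges did not overlap for either gene. The differences were -1.66 ± 0.09 for Isg20 (SE, log2; limma adjusted p = 5.86e-14) and -1.18 ± 0.08 for Mx1 (2.34e-12).

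Trim30a, a TRIM family gene that restrains inflammatory signalling, ranged from 180 to 249 in batch 1 and from 85.1 to 119 in batch 2, a difference of -1.11 ± 0.06 (SE, log2). Zbp1, which encodes a sensor of left-handed nucleic acids that triggers cell death, ranged from 84.7 to 201 and from 47.3 to 92.9, a difference of -1.03 ± 0.12. Trim30a did not overlap between batches and Zbp1 did. Irf7, the factor that amplifies type I interferon production, ranged from 209 to 380 and from 124 to 191 (-0.86 ± 0.08), and Isg15 from 67.3 to 115 and from 37.9 to 62.8 (-0.71 ± 0.08).

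In all, 9 members had every batch 1 library above every batch 2 library, beside 4.88% of all tested genes: Irf7, Irf8, Isg15, Mx1, Isg20, Xaf1, Trim30a, Ifih1 and Dhx58. No member had the reverse, beside 4.3% of all genes. Among the 3 RNA sensor genes, Dhx58 differed by -0.92, Ifih1 by -0.50 and Ddx58 by -0.13. Irf9, whose product binds DNA together with STAT2, differed by -0.25 ± 0.05 and Stat2 by -0.14 ± 0.04.

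The 4 members higher in batch 2 were Cxcl10 (0.67 ± 0.22), Gbp2 (0.48 ± 0.11), Igtp (0.41 ± 0.05) and Gbp3 (0.26 ± 0.09; SE, log2). Of these, 3 are interferon-inducible GTPases, of which the list has 6. Another 2 of the 6, Ifi47 and Irgm1, were called lower in batch 2. Gbp2 ranged from 12.5 to 41.1 normalized counts in batch 1 and from 25.4 to 57.4 in batch 2, so its ranges overlapped. Cxcl10 was near the floor, with a mean of 5.55 in batch 1 and 8.88 in batch 2. It reached 10 normalized counts in 7 libraries, most of them in batch 2. Cxcl10 thus passed the filter mainly through the batch where it was higher, and its batch call carries little weight. Dtx3l, Gbp7, Parp14 and Usp18 were not called. Guanylate-binding protein genes have near copies, and how reads shared between copies were counted is not given in the sources used here.

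Markers of other cell types also differed by batch. Summed B cell markers were 66.2 to 130 normalized counts in batch 1 and 10.7 to 31 in batch 2, with Ms4a1 at or near 0 throughout. Summed macrophage and dendritic cell markers were 5573 to 8235 in batch 1 and 8569 to 10180 in batch 2, with 3 of 11 markers at a mean of 10 or more and Adgre1 and Lyz2 near 0. That sum is mostly Itgax, an integrin gene (mean 5960 in batch 1 and 8969 in batch 2) and the only marker of that list called. Cd68 averaged 414 and 391, and Cd14 averaged 179 in both. Summed T cell markers were 178538 to 209728 in batch 1 and 147251 to 167860 in batch 2. That sum includes Gzmb (mean 46013 and 36361) and Prf1 (37619 and 19161), both called lower in batch 2. Cd3d, Cd3g, Cd8a, Cd8b1, Lck and Il2rb were also called lower. Cd3e, Ptprc, Cd247 and Thy1 were not called, and Il2ra was called higher (15533 and 18118). The part of all these markers in the batch differences was not tested.

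The batches also differed in how some members ran over the groups. In a model with a mean for each group in each batch, a test added after the data were seen, 6 of 28 members differed between the batches in their group pattern, beside 13.7% of all genes: Stat2, Ifit2, Mx1, Bst2, Zbp1 and Gbp7. edgeR called 4 and DESeq2 3, and 2 members, Mx1 and Bst2, were called without the 2 libraries that had the fewest genes at 0 (all genes 4.7%). Batch 1 has 1 library per group, so its share of the pattern has no replicate check.

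Mx1 shows it with the smallest p (limma adjusted p = 0.0123). In batch 1, Mx1 was at 463 normalized counts at 0 h and at 675 to 772 in all 8 later libraries. In batch 2, it was at 265, 292 and 298 at 0 h, at 368, 372, 381 and 390 at 2 h, and at 244, 198, 187 and 196 at 8 h. Batch 1 thus stayed above its 0 h level while batch 2 ended below its own, in untreated and treated cells alike. Relative to 0 h in the same batch, 12 of 28 members in untreated batch 1 cells (all genes 36.4%) and 1 in untreated batch 2 cells (17.1%) differed by at least 0.5 on the log2 scale at 8 h. With exosomes these were 3 (12.4%) and 4 (14.3%) at 8 h, and 2 (13.6%) and 2 (12.2%) at 4 h. The batch 1 values compare single libraries, and the untreated one at 8 h is among those with muscle transcripts.

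**Figure D5:**
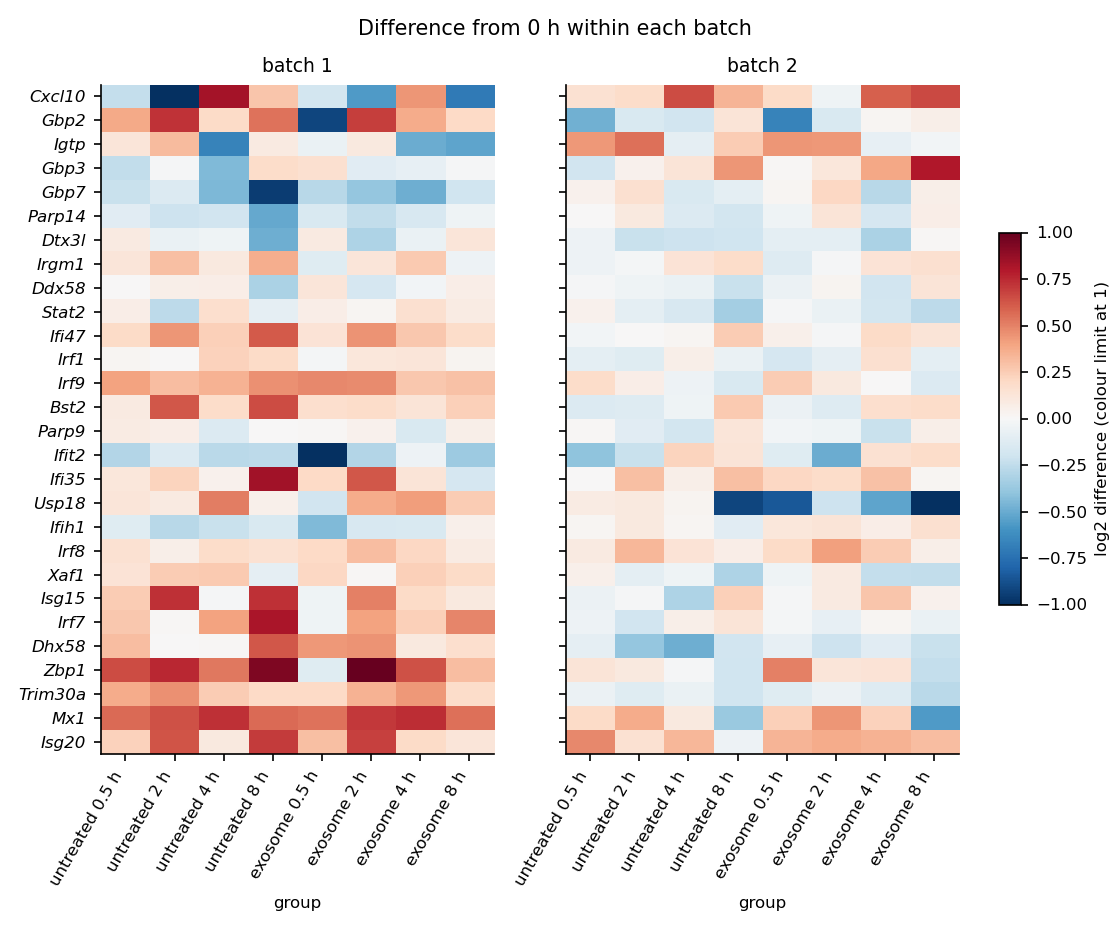
Difference of each group from 0 h in its own batch on the log2 scale, for the 28 tested members in rows and the 8 later groups in columns, with batch 1 (1 library per group) on the left and batch 2 on the right. Red is higher and blue lower than 0 h, with the colour limit at 1. Mx1 is red in every batch 1 column and blue at 8 h in batch 2.

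Of the other genes of the pathway, the ligand gene Ifng rose in untreated cells after the change of medium. The rise was 1.07 ± 0.19 at 0.5 h (SE, log2; limma adjusted p = 0.00452), 0.99 at 2 h and 0.74 at 8 h. Among all genes, 0.189%, 1.83% and 31.7% were called at these times. At 4 h Ifng was not called, with an untreated mean of 61.5 normalized counts beside 63.1 at 8 h. The feedback inhibitor genes Socs3 and Socs1 rose by 1.12 and 0.74 at 0.5 h. Of 8 tested restraint genes these 2 were called then, beside 0.189% of all genes. Among receptors, kinases and STATs, 5 of 8 tested genes were lower in batch 2 (all genes 29.2%) and none was higher (28.5%). Ifngr1 was lowest at -0.84 ± 0.04.

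Among 14 antigen presentation genes of the interferon gamma response, 8 rose (all genes 15.9%) and 1 fell (15.8%) in untreated cells at 8 h, led by the immunoproteasome genes Psmb10 (0.59) and Psmb9 (0.55). Their median was 0.21, beside -0.01 for all genes and 0.06 for the 28 members. In the list of other interferon-stimulated genes, 5 of 32 rose and 6 fell at that time, shares close to those of all genes, and between batches 11 were higher and 10 lower in batch 2, also close to the 28.5% and 29.2% of all genes, with Ifi27l2a at -1.79 and Gbp4 at 1.09. The 8 h values rest on the same libraries with muscle transcripts. Traf3, an adaptor upstream of interferon production, was the only gene of the 6 pathway lists that differed with exosomes. The difference was 0.20 ± 0.04 in the mean (SE, log2; limma adjusted p = 0.0142; all genes 0.459%) and 0.45 ± 0.08 at 8 h (0.0098; 0.452%). In untreated cells Traf3 was also lower at 8 h than at 0 h (-0.23 ± 0.08; limma adjusted p = 0.0276). The same untreated 8 h libraries enter its exosome difference at 8 h.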

How the data were processed

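Total RNA from 28 CTLL2 samples was sequenced as paired reads, per the labels' protocols. Reads were processed with STAR 2.4.2 and featureCounts 1.5.0 among other tools on a GRCm38 build, per the submitters' processing notes, which also list CASAVA 1.8.4, R 3.3.2 and DESeq2 without settings. The deposited values are a normalized signal: the authors scaled the read counts of each library by a single factor. Undoing that scaling returned whole numbers for 100% of values (tolerance 0.01 read), and these recovered reads were used with edgeR 4.0.16 and DESeq2 1.42.0 as alternatives.

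The main test was limma 3.58.1 in R 4.3.3 with a mean-variance trend on log2(normalized count + 1), with a pseudocount of 1 that understates changes of low genes. Groups and batch were fitted together, leaving 18 residual degrees of freedom, and a gene was called at an adjusted p below 0.05. On simulated reads it recovered 94 of 97 changes of 1 log2 in the mean exosome effect, 76 of 98 in the untreated 8 h comparison and 90 of 97 between batches, so changes of that size or less at single times can be missed. Symbols and positions came from GENCODE M21, which held 30403 of the 30608 identifiers.

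The members and lists were chosen with earlier results of these data known. Described by rule were Irf1, Stat2, Irf9, Irf7, Isg15, Ifit1, Cxcl10, Bst2 and Gbp2, the 6 members with the smallest F-test p, the 6 highest per kb, up to 3 called per direction at each untreated time, the 4 with the largest batch difference per direction, and up to 2 called genes per other list and comparison. Usp18, Ddx58, Parp14, the receptor chains and the sequences shown were chosen after their values were seen. Some genes of the pathway are not reported here.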

Additional observations from a re-analysis of the deposited data

Results flagged for a closer look

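At 0 h, 5 of 28 tested members had 1 of the 4 libraries far from the rest, judged by its gap to the nearest library as a share of the group's range against Dixon's 95% critical value. The gap was 0.893 for Irf8, 0.835 for Mx1, 0.853 for Isg20, 0.854 for Ifih1 and 0.842 for Gbp2. In all 5 the library apart was the single batch 1 library, higher for Irf8, Mx1, Isg20 and Ifih1 and lower for Gbp2, the same directions as the batch difference over all groups. Chance alone sets about 1 in 20 groups apart. Among all 14828 tested genes, 12% had a library apart at 0 h, and in 9.64% it was the batch 1 library.

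The pattern over the 9 groups differed between the batches for 6 members (limma): Mx1 (adjusted p = 0.0123), Zbp1 (0.0215), Bst2 (0.0222), Gbp7 (0.0395), Ifit2 (0.0426) and Stat2 (0.0428). Bst2 stood out at 2 h, where untreated cells held 3270 normalized counts in batch 1 and 1981 and 1820 in batch 2. Ifit2 was lowest in batch 1 in treated cells at 0.5 h, at 47.3 against 99.5 at 0 h, while batch 2 was lowest at 2 h with exosomes, at 42.4 and 52.2. Zbp1 reached 201 in batch 1 with exosomes at 2 h from 92.3 at 0 h, and batch 2 held 75.8 and 60.3 there.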

How the results depend on the processing

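Counts below are members called. The batch difference was within 1.5 times its count of 24 under every alternative run (23 to 25 leaving out 1 library at a time, 22 to 25 otherwise). The exosome counts stayed at 0 under every alternative except that DESeq2 gave 4 at 8 h, leaving out 1 library gave 0 to 8 at 8 h and 0 to 1 for the mean, the test between times gave 0 to 5, and the test between batches gave 2 without the libraries with muscle transcripts, an alternative chosen after the data were seen. The batch 2 exosome effect of Usp18 was called with quantile normalization and without exosome 8 h replicate 1. At 2 h in untreated cells the count of 2 became 1 without a filter, 1 without the 2 libraries with the fewest genes at 0, 1 without the muscle libraries, 0 without a batch term, and 0 to 2 leaving out 1 library. At 4 h it became 1 in batch 2 alone and 0 to 1 leaving out 1 library. At 8 h the count of 10 became 6 without a filter, 1 without a batch term, 3 in batch 2 alone, 0 without the muscle libraries and 0 to 13 leaving out 1 library. Without the muscle libraries the 8 h change turned to 0.01 for Gbp7, 0.01 for Ddx58, 0.01 for Parp14 and 0.03 for Dtx3l, and the 8 h exosome effect of Gbp7 to -0.02, with 1 untreated 8 h library left, assumed to vary like the others. Over the 9 groups the count of 9 became 0 without a batch term, 5 without the 2 libraries with the fewest genes at 0, 2 without the muscle libraries and 5 to 17 leaving out 1 library. The group pattern between batches, 6 members, became 3 without a filter, 3 by DESeq2, 2 without the 2 libraries with the fewest genes at 0, and 3 to 8 leaving out 1 library. The cause of these shifts was not tested.

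Replicate numbers were not taken to pair the samples. Deviations of same-numbered libraries from their group means, with the batch difference left in, correlated at 0.22 to 0.73 in the 10 of 12 pairs within a batch, and at -0.54 and -0.30 in the others, at 2 h, which join libraries of different batches. With a replicate block the count was 1 at 2 h, where Irf8 lost its call, 7 at 8 h, 4 over the 9 groups, where Gbp2, Gbp3, Gbp7, Irf1 and Usp18 lost theirs, and 22 between batches.

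Precision is limited by depth for Cxcl10, Usp18 and the 9 untested genes.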
